A study of Mus musculus with 6 samples.

Results

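The genes of the hypoxia-inducible factor (HIF) pathway described here are 34 genes, chosen by symbol as HIF subunits, the enzymes that control them, and HIF target genes that are not part of glycolysis. All 34 were found among the 39179 genes listed for each library, and 33 passed the filter on low counts; Adm did not. RNA was sequenced from Th17 cells, a type of CD4+ T helper cell that makes interleukin 17, in 3 libraries from cultures with 30 ng/mL desIgf1 and 3 from control cultures. desIgf1 is a shortened form of IGF-1 with little affinity for the IGF-binding proteins, and the comparison asks what it changes in the transcripts of these cells. Cells of both groups came from C57BL/6 mice with the reporters IL17a/hCD2, Ifng/Thy1.1 and Foxp3/GFP, and the labels give no age. Naive splenic CD4+ T cells of both groups were stimulated over 5 days by anti-CD3 in solution at 5 µg/mL, together with irradiated CD4-depleted splenocytes. TGF-β at 2.5 ng/mL and IL-6 at 20 ng/mL were added, and antibodies at 10 µg/mL each blocked IL-4 and IFN-γ. Cells positive for the Il17a reporter and negative for the other reporters were sorted. The protocol text names desIgf1 for all 6 libraries, whereas the titles and the series design separate the groups, and the groups here follow the titles.

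HIF is a heterodimer of an oxygen-regulated alpha subunit (Hif1a or Epas1) and the constitutive partner Arnt. In oxygen, the prolyl hydroxylases Egln1, Egln2 and Egln3 mark the alpha subunit for the ubiquitin ligase adaptor Vhl, which leads to its degradation, and the asparaginyl hydroxylase Hif1an blocks its transactivation. Growth factor signalling through mTOR can raise HIF-1α synthesis in oxygen, and in T cells HIF-1α is known for promoting glycolysis and Th17 differentiation. The protein is controlled mainly after translation, so the transcript of Hif1a is no measure of HIF activity, whereas target transcripts respond to it.

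Counts in genes were 34567899 to 47929948 per library. All 8 T cell markers were present, summing to 5390 to 5437 CPM (counts scaled to a common library size) in controls and 5397 to 5983 CPM with desIgf1, and of the CD8 T cell markers Cd8a was at most at 0.103 CPM. Cd8b1 was at 3.22, 5.96 and 7.82 CPM in controls and 4.98, 10.2 and 10.9 CPM with desIgf1, higher in each number, and its part in the results was not tested. The 7 Th17 markers summed to 1536 to 1785 CPM in controls and 2129 to 2525 CPM with desIgf1, without overlap; the part of this difference in the results below was not tested. The titles number the libraries 1 to 3 in each group, and same-numbered libraries deviated together from their group means (r = 0.59, 0.32 and 0.55 across genes). Both number 1 libraries held Xist (1705 and 2219 CPM), and those of numbers 2 and 3 held Y-linked transcripts instead. On the first principal component, which held 43.5% of the variance, the number 3 libraries of both groups were separated from numbers 1 and 2. Values are therefore given by number, and a fit with the number as a block is given beside the fit without it. In bulk RNA of this kind, fewer cells that express a gene and less RNA per cell cannot be told apart.

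Most HIF pathway genes were higher with desIgf1 within each replicate number, although the groups overlapped. Within number 1, 27 of the 33 tested members were higher with desIgf1, within number 2, 27, and within number 3, 28. In all 3 numbers 21 members were higher and 0 were lower, whereas over all 13846 genes tested 20.9% were higher and 17.2% lower in all 3. The median log2 fold change of the 33 members was 0.31, beside -0.01 over all genes tested, and 28 of 33 were above 0, beside 49.1% of all genes. The median moved to 0.17 without control library 3 and to 0.18 without desIgf1 library 2. The ranges of the 2 groups overlapped for all 33 tested members, whereas 7.31% of all genes had every desIgf1 library higher than every control and 6.18% every one lower. The members were chosen with earlier results of these data known, so these shares and medians are not independent of the choice.

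When the block was left out, edgeR's quasi-likelihood test gave 0 of 33 members past an adjusted p of 0.05 (Benjamini-Hochberg over all genes), as did 0% of all genes. At an unadjusted p under 0.05, 2 members were higher (Narf and Bnip3l) and 0 lower, a share near the background, since 4.75% of all genes were higher and 3.42% lower at that level. DESeq2 without the block called 0 members in either direction, beside 0.802% of all genes higher and 0.657% lower, and limma voom called 0. With the replicate number as a block, edgeR called 2 members higher, Vegfa and Ero1l, beside 0.181% of all genes called higher, and 0 lower, beside 0.137%. The standard error of a member's log2 fold change was, at the median, 2.14 times as large without the block as with it. DESeq2 with the block called 11 members higher and 0 lower (2.89% and 1.49% of all genes), namely Vegfa, Ero1l, Ndrg1, Bnip3, P4ha2, Egln1, Stc2, Pdk1, Ddit4, Ankrd37 and Ppp1r3b. Correcting the blocked edgeR fit for GC content and length left 0 members called, beside 0.0289% of all genes called higher. The blocked fit on 2 of the 3 numbers called 2 members higher without number 1 (0.335% of all genes), 11 without number 2 (2.41%) and 11 without number 3 (4.68%). The 11 without number 3 include Adm, which is not among the 33 and passed the filter there only through its desIgf1 libraries.

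**Figure D1:**
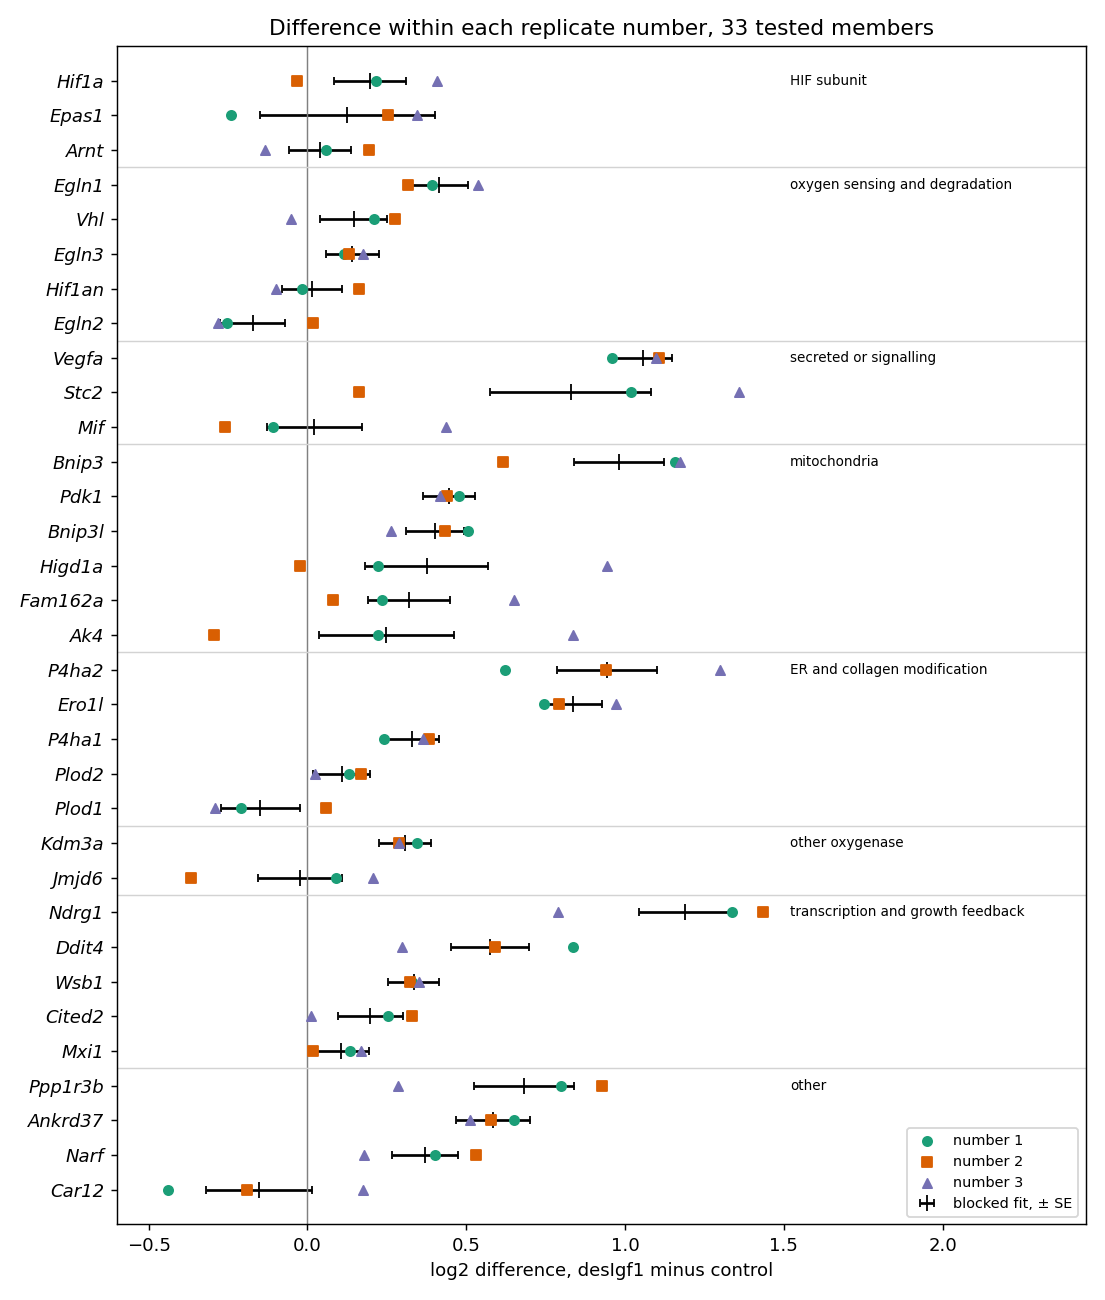
Log2 difference of desIgf1 minus control (x axis) within each replicate number (colour and shape) for the 33 tested members (y axis), grouped by role. The black mark and bar are the log2 fold change of the blocked edgeR fit ± SE. All 3 numbers lie right of 0 for 21 members, and the blocked values are largest for Ndrg1, Vegfa, Bnip3 and P4ha2.

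Among the subunits, Hif1a was the most abundant and did not differ between the groups beyond the spread of the libraries. Hif1a (chromosome 12, 73901375 to 73947530, plus strand, GRCm38) was at 1489, 2030 and 857 CPM in controls 1 to 3, while desIgf1 libraries 1 to 3 had 1730, 1985 and 1137 CPM. In both groups number 2 was highest and number 3 lowest, and the ranges of the groups overlapped over most of their length. Its log2 fold change was 0.15 ± 0.32 (SE, edgeR adjusted p = 0.912), and 0.20 ± 0.11 with the block (adjusted p = 0.481). Epas1, which encodes HIF-2α, was scarce, with 36 to 71 counts per library, at 1.25, 1.41 and 1.03 CPM in controls and 1.05, 1.69 and 1.32 CPM with desIgf1 (blocked adjusted p = 0.859). Arnt was even across all 6 libraries, at 113, 109 and 127 CPM in controls and 118, 124 and 115 CPM with desIgf1 (log2 0.04 ± 0.10, adjusted p = 0.925). Per kilobase of exon, Hif1a exceeded Epas1 by 788-fold to 1560-fold within a library, and Arnt by 9.20-fold to 25.3-fold.

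Of the 3 prolyl hydroxylase genes, Egln1 was higher with desIgf1 in each number, Egln3 differed more between the numbers than between the groups, and Egln2 had a small difference of the other sign. Egln1 encodes PHD2, the main oxygen sensor for HIF-1α. It was at 239, 308 and 191 CPM in controls and at 313, 383 and 278 CPM with desIgf1. Each desIgf1 library was above its same-numbered control, while desIgf1 library 3 was below control 2. The log2 fold change of Egln1 was 0.40 ± 0.19 (adjusted p = 0.625), and 0.42 ± 0.09 with the block (adjusted p = 0.149). Egln3, itself a HIF target that encodes PHD3, was at 390, 531 and 228 CPM in controls and 423, 581 and 257 CPM with desIgf1. The largest of its differences within a number was 0.18 on the log2 scale (blocked 0.14 ± 0.08, adjusted p = 0.485), and number 3 was lowest in both groups. Egln2, which encodes PHD1, was at 74.9, 63.8 and 74.7 CPM in controls and 62.9, 64.5 and 61.5 CPM with desIgf1 (log2 -0.18 ± 0.10, adjusted p = 0.652). Hif1an was at 103, 89.5 and 108 CPM and at 101, 100.1 and 100.7 CPM (adjusted p = 0.984), and Vhl at 51.1, 49.0 and 52.7 CPM and at 59.1, 59.3 and 50.9 CPM (log2 0.15 ± 0.10, adjusted p = 0.698). The difference of Hif1an did not exceed the spread between libraries. For Vhl, desIgf1 libraries 1 and 2 were above every control, whereas desIgf1 library 3 was below controls 1 and 3.

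**Figure D2:**
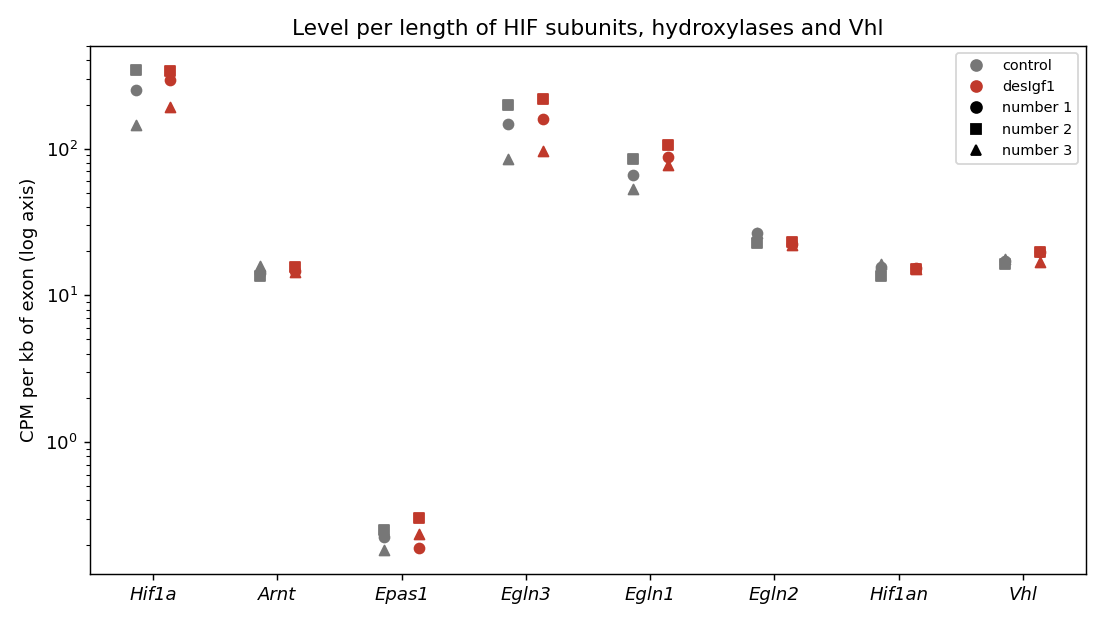
Level of HIF subunits, prolyl hydroxylases, Hif1an and Vhl in CPM per kilobase of exon (y axis, log scale) in each library, with controls in grey and desIgf1 in red and the replicate number by shape. Hif1a and Epas1 differ by 788-fold to 1560-fold, and Hif1a, Egln3 and Egln1 are lowest in number 3 in both groups.

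Per kilobase, the mean over the 6 libraries ordered the hydroxylases as Egln3 (151 CPM per kb), Egln1 (79.4), Egln2 (23.9) and Hif1an (15.2). Egln3 exceeded Egln1 in every library, by 1.25-fold to 2.33-fold, and Egln1 exceeded Egln2 by 1.99-fold to 4.63-fold. Among all 34 members, Hif1a (261 CPM per kb), Fam162a (171), Egln3 (151), Mif (126) and Ddit4 (103) were the most abundant by mean. Control means ± SD (n = 3) were 247 ± 99.6 for Hif1a, 155 ± 45.9 for Fam162a, 144 ± 56.9 for Egln3 and 126 ± 27.2 for Mif. Hif1a exceeded Fam162a in every library, whereas the order of Fam162a, Egln3 and Mif varied between libraries. At the low end were Adm (0.143 CPM per kb), Epas1 (0.231), Car12 (1.59) and Stc2 (2.22). The value of Mif can be too low, since reads that fit its pseudogene copies equally well are not in the counts.

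Vegfa, the gene of vascular endothelial growth factor A, rose in the blocked fit. Vegfa (chromosome 17, 46016993 to 46032369, minus strand) was at 50.6, 61.9 and 20.2 CPM in controls and at 98.5, 133 and 43.2 CPM with desIgf1. The 2 groups overlapped, because desIgf1 library 3 lay below controls 1 and 2, yet within each number the desIgf1 library was about as far above its control (log2 differences 0.96, 1.11 and 1.10). With the block Vegfa rose 2.08-fold (log2 1.06 ± 0.09, edgeR adjusted p = 0.0332), and without the block its log2 fold change was 1.05 ± 0.51 (adjusted p = 0.628). The blocked edgeR adjusted p stayed under 0.05 without the libraries of number 1, 2 or 3 (0.0238, 2.33e-05 and 0.00142). These fits have fewer residual degrees of freedom and called 72, 620 and 1069 of all genes, beside 44 with all 6 libraries. A smaller p there is not stronger evidence. With the correction for GC content and length the log2 fold change of Vegfa was 1.07 and its adjusted p was 0.0501. Markers of macrophages and monocytes, which can also make Vegfa, summed to 4.38 to 12.1 CPM in controls, lowest in control library 3, and to 9.51 to 14.3 CPM with desIgf1. Fcgr1 of that list was at 0 in all libraries, and 2 of its 7 genes reached a mean of 1 CPM. The part of these cells in the Vegfa values was not tested.

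Of the other secreted factors, Adm (adrenomedullin, a vasodilator peptide) had 1, 2 and 0 counts in controls 1 to 3 and 15, 33 and 8 counts in desIgf1 libraries 1 to 3. All 3 desIgf1 libraries were above all 3 controls, at 0.165 to 0.784 CPM against at most 0.0469 CPM. The ratio of the summed counts, 56 against 3, was 17.6 per library size with an exact 95% interval of 5.73 to 88.0, which covers counting error only. With all 6 libraries Adm was below the filter. With no filter its edgeR adjusted p was 0.232. In edgeR fits without the block it was 0.251 when desIgf1 library 3 was left out. It was 0.886, 0.402 and 0.195 there when control 1, 2 or 3 was left out. Only in the blocked edgeR fit without number 3 was it under 0.05, at 0.00723 (log2 3.96). Adm passed the filter there only through its desIgf1 libraries (15 and 33 counts against 1 and 2). That p is therefore not independent of the difference it tests. A fitted fold change at such counts depends on the prior count. Stc2 (stanniocalcin 2) was at 7.81, 16.6 and 2.81 CPM in controls and 15.9, 18.5 and 7.28 CPM with desIgf1 (blocked log2 0.83 ± 0.25, adjusted p = 0.246). Number 2 showed a small difference in Stc2 (0.16) and numbers 1 and 3 a larger one (1.02 and 1.36). Mif, a cytokine, was at 93.8 ± 20.3 CPM in controls and 93.7 ± 3.78 CPM with desIgf1 (SD, n = 3, blocked adjusted p = 0.961).

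In the endoplasmic reticulum group, Ero1l rose in the blocked fit and P4ha1, P4ha2 and Plod2 were above their controls in each number, whereas Plod1 was below in numbers 1 and 3. Ero1l (Ero1a in RefSeq, chromosome 14, 45283087 to 45318771, minus strand) encodes an oxidase that forms disulfide bonds in the endoplasmic reticulum. It was at 113, 158 and 65.3 CPM in controls and at 190, 274 and 128 CPM with desIgf1. Again desIgf1 library 3 lay among the controls, and the differences within the numbers were 0.74, 0.79 and 0.97. With the block Ero1l rose 1.78-fold (log2 0.84 ± 0.09, adjusted p = 0.0443), and without it the log2 fold change was 0.81 ± 0.37 (adjusted p = 0.619). The blocked call was lost without number 1 (adjusted p = 0.0630) and with the GC and length correction (log2 0.70, adjusted p = 0.0816). P4ha2, a catalytic subunit of collagen prolyl 4-hydroxylase, was at 17.6, 27.4 and 4.24 CPM in controls and 27.1, 52.5 and 10.5 CPM with desIgf1 (blocked log2 0.94 ± 0.16, adjusted p = 0.0971). It was higher in each number, by 0.62, 0.94 and 1.30, and differed more between the numbers than between the groups. Its more abundant paralog P4ha1 was at 174, 179 and 104 CPM and at 206, 234 and 134 CPM (blocked log2 0.33 ± 0.09, adjusted p = 0.186). The lysyl hydroxylase genes were closer to even, Plod2 at 61.4 ± 9.02 and 66.6 ± 13.0 CPM and Plod1 at 21.5 ± 2.61 and 19.3 ± 0.0447 CPM (blocked adjusted p = 0.612 and 0.621).

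**Figure D3:**
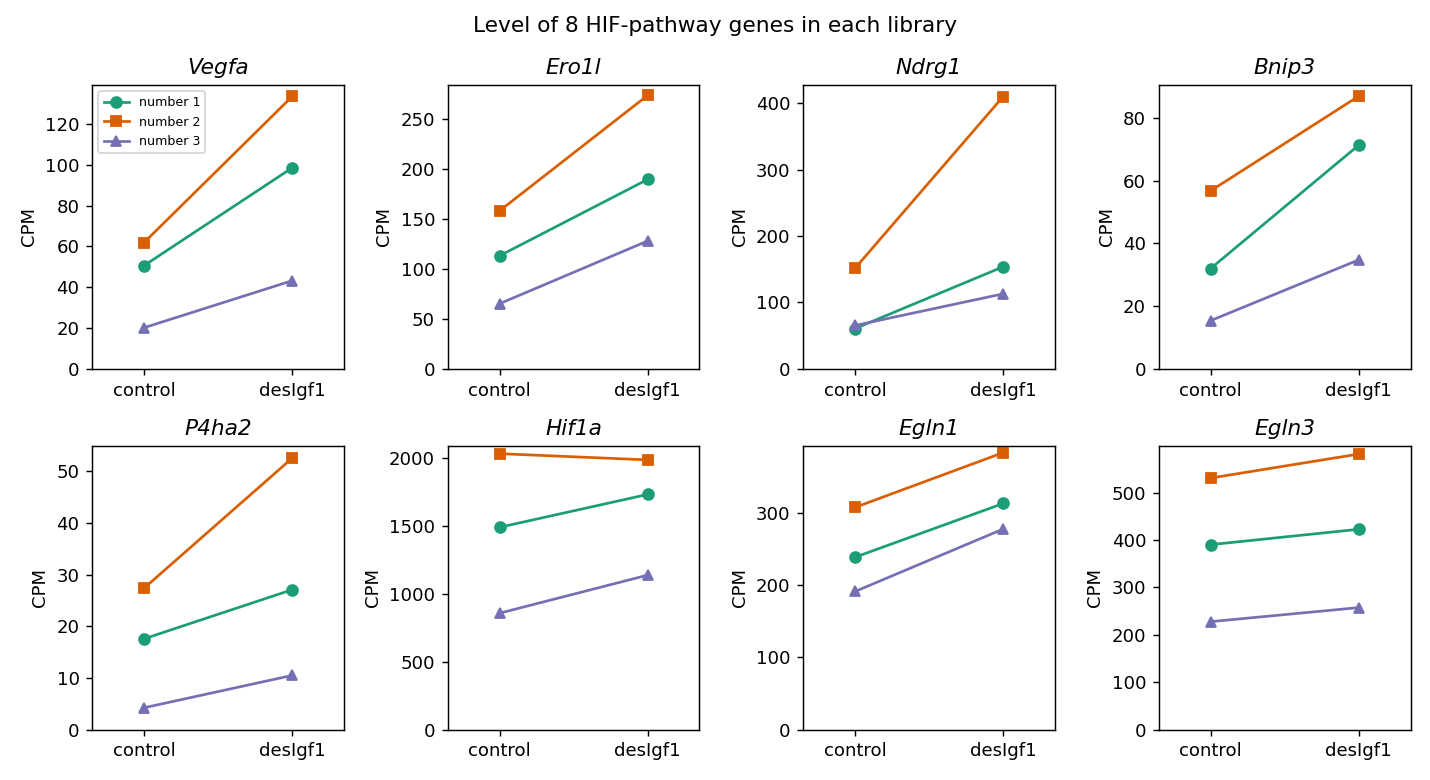
CPM (y axis, from 0) of 8 members in control and desIgf1 libraries (x axis), with a line joining the libraries of 1 replicate number. The lines of Vegfa, Ero1l, Ndrg1, Bnip3, P4ha2 and Egln1 all slope upwards while their starting levels differ by number; the lines of Egln3 are nearly flat, and 1 of the 3 lines of Hif1a slopes down.

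Sequences upstream of 4 members with the smallest adjusted p in the blocked fit, among those with a window in the RefSeq promoter table (GRCm38.p6), show where the core of the HIF response element occurs near their starts. Each is the 250 bases before the most upstream start of that gene in the RefSeq table, 5′ to 3′ on the strand of the gene, with every match to the core in capitals. The core was searched as ACGTG and GCGTG on both strands (CACGT and CACGC when read on this strand), and 2 matches can share bases within CACGTG, which is also an E-box.
Vegfa (chr17:46032378-46032627, minus strand): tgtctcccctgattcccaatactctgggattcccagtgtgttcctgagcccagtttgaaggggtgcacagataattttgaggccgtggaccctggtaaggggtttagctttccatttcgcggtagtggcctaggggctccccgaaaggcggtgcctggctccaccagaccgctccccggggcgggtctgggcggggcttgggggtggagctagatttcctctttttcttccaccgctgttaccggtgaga
Ero1l (chr14:45318573-45318822, minus strand): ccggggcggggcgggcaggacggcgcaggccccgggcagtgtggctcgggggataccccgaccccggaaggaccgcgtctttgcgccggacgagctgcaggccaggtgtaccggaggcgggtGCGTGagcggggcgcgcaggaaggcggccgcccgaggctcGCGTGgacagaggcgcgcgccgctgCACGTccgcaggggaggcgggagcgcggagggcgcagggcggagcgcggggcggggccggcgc
Bnip3 (chr7:138909507-138909756, minus strand): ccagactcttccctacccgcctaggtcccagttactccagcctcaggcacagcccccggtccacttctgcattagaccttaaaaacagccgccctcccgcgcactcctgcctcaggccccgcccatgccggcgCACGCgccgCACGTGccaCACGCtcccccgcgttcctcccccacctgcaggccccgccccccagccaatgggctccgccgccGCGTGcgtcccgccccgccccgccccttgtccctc
P4ha2 (chr11:54100674-54100923, plus strand): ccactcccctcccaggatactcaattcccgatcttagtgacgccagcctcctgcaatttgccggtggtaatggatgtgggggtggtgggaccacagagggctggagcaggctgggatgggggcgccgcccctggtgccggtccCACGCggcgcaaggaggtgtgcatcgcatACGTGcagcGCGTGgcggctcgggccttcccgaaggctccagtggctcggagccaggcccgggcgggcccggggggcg

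Ero1l had matches that began 128, 88 and 63 bases before this RefSeq start, and P4ha2 had matches 107, 78 and 69 bases before it. GENCODE M21 has 1 transcript that starts farther upstream for each of Ero1l (199 bases), P4ha2 (829) and Bnip3 (13), so these matches lie upstream of the RefSeq start but within the gene as GENCODE draws it for Ero1l and P4ha2. In Bnip3 there were 5 matches between 117 and 35 bases upstream, of which a pair overlapped in 1 CACGTG. The Vegfa window held 0 matches, which says only that these letters are not in these 250 bases. Of 29 members with a window, 23 (79.3%) held at least 1 match, beside 38.6% of the windows of 27018 genes. The members' windows were richer in G and C (median 62.0% against 52.0%), and among windows of at least 60% GC the shares were 16 of 17 members and 64.3% of all genes. The members were chosen as known HIF targets and regulators, so this share describes them and is not independent of the choice.

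Of the mitochondrial targets, all 6 had a log2 fold change above 0 and 4 were higher in every number. Bnip3, a mitophagy receptor, was at 32.0, 56.8 and 15.4 CPM in controls and at 71.3, 87.0 and 34.8 CPM with desIgf1. Number 3 was again lowest in both groups, and the differences within the numbers were 1.16, 0.62 and 1.17 (blocked log2 0.98 ± 0.14, adjusted p = 0.0692). Pdk1, the kinase that limits entry of pyruvate into the citric acid cycle, was at 198, 242 and 159 CPM in controls and 276, 328 and 212 CPM with desIgf1. Its differences were the most even of this group, 0.48, 0.44 and 0.42 (blocked log2 0.44 ± 0.08, adjusted p = 0.114). Bnip3l, the paralog of Bnip3, was at 92.7, 111 and 82.9 CPM and at 132, 150 and 99.6 CPM (blocked log2 0.40 ± 0.09, adjusted p = 0.158). Fam162a, a HIF-responsive mitochondrial protein gene, was at 131 ± 39.0 and 160 ± 18.2 CPM (blocked adjusted p = 0.346).
In Higd1a, a survival factor of the inner membrane, and Ak4, an adenylate kinase of the matrix, the difference came mainly from number 3, with 0.94 and 0.84 there and -0.02 and -0.29 in number 2 (blocked adjusted p = 0.438 and 0.624). The share of counts from mitochondrial genes was 0.836 to 1.12% in controls and 1.10 to 1.42% with desIgf1, and its part in these values was not tested.

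Genes of transcription and growth feedback were above their controls in each number in 5 of 5 cases, and Ndrg1 had the largest log2 fold change of all tested members. Ndrg1, a stress-responsive differentiation gene, was at 60.8, 152 and 65.4 CPM in controls and at 154, 410 and 113 CPM with desIgf1. Here number 2 stood high in both groups, and desIgf1 library 3 lay below control 2. The log2 fold change of Ndrg1 was 1.28 ± 0.56 without the block (adjusted p = 0.609) and 1.19 ± 0.15 with it, just outside the threshold (adjusted p = 0.0512). Without number 1, 2 or 3 the blocked edgeR adjusted p of Ndrg1 was 0.0342, 2.07e-04 and 4.32e-04. These fits have fewer residual degrees of freedom and called more of all genes, so these values are not stronger evidence. Ddit4, which encodes the mTORC1 inhibitor REDD1, was at 189, 128 and 106 CPM in controls and 339, 193 and 130 CPM with desIgf1. Its difference was 0.84 in number 1, 0.59 in number 2 and 0.30 in number 3 (blocked log2 0.58 ± 0.12, adjusted p = 0.148). Wsb1, a substrate adaptor of a ubiquitin ligase, differed by 0.33, 0.32 and 0.35 (blocked adjusted p = 0.173). Cited2, which competes with HIF-1α for its coactivators, was at 67.5 ± 10.5 and 77.0 ± 4.69 CPM (blocked adjusted p = 0.435), and Mxi1, a MYC antagonist, at 102 ± 34.8 and 109 ± 32.3 CPM (0.599).

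The histone demethylase gene Kdm3a differed by 0.35, 0.29 and 0.29 in numbers 1 to 3 and was at 251 ± 49.1 and 310 ± 62.1 CPM (blocked log2 0.31 ± 0.08, adjusted p = 0.196). Jmjd6, another oxygenase, was at 92.0 ± 19.9 and 90.3 ± 19.1 CPM (adjusted p = 0.951 with the block). Of the remaining members, Ppp1r3b, a glycogen-targeting subunit of protein phosphatase 1, was at 23.0, 14.1 and 7.99 CPM in controls and 40.1, 26.8 and 9.76 CPM with desIgf1 (blocked log2 0.68 ± 0.16, adjusted p = 0.166). Ankrd37 was at 18.9, 14.8 and 8.82 CPM and at 29.7, 22.2 and 12.6 CPM, with differences of 0.65, 0.58 and 0.51 (blocked adjusted p = 0.135). Both genes were highest in number 1 and lowest in number 3 in each group. Narf had the smallest p of the members without the block, at 61.0 ± 5.55 and 79.3 ± 11.4 CPM (log2 0.38 ± 0.14, adjusted p = 0.544, and 0.215 with the block). Car12, a carbonic anhydrase, was at 12.7 ± 2.05 and 11.4 ± 1.76 CPM (blocked adjusted p = 0.705). Exons of 10 members (Hif1a, Egln2, Bnip3, Higd1a, Fam162a, Plod2, Jmjd6, Mxi1, Ndrg1 and Ankrd37) overlap exons of a gene on the other strand, and the strand setting of the counting is not given, so their values are less certain. Vhl, Mif and Bnip3l have named pseudogenes, which can take reads from them.

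Several members with a large desIgf1 difference were also low in both number 3 libraries. Both number 3 libraries lay below the other 4 for 13 of the 33 tested members, beside 12.5% of all genes, and above them for 1, Cited2, beside 15.0%. The 13 were Hif1a, Egln3, Vegfa, Stc2, Ak4, P4ha1, P4ha2, Plod2, Kdm3a, Mxi1, Wsb1, Ankrd37 and Ppp1r3b. Ndrg1, Bnip3 and Ero1l were not among the 13, although their blocked log2 fold changes were 1.19, 0.98 and 0.84. Their number 3 libraries overlapped the other 4. The log2 difference of number 3 from numbers 1 and 2 was lowest for P4ha2 (-2.10), followed by Stc2 (-1.62), Ppp1r3b (-1.46) and Vegfa (-1.44). Across the 33 members, the log2 difference of number 3 from numbers 1 and 2 and the blocked log2 fold change of desIgf1 had a Pearson r of -0.77 and a Spearman rho of -0.72, and across all 13846 genes -0.10 and -0.18. Without P4ha2 and Stc2, the farthest from the median, r was -0.73 over 31 members. Both measures come from the same 6 libraries, genes are not independent replicates, and the choice to look at number 3 was made after its libraries were seen to stand apart. Hif1a, Egln3 and Mxi1 were exceptions in size, at -0.86, -0.97 and -0.84 between the numbers and at 0.20, 0.14 and 0.11 between the groups. What distinguishes number 3 is not stated in the labels.

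**Figure D4:**
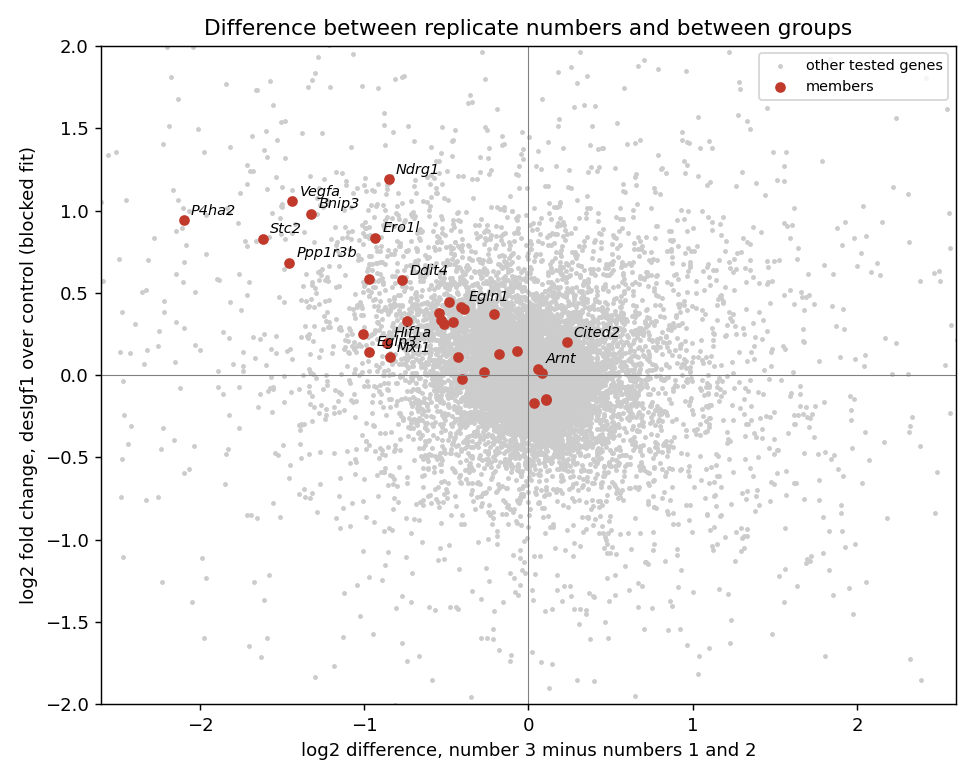
Each point is a gene, with the log2 difference of both number 3 libraries from the other 4 on the x axis and the blocked log2 fold change of desIgf1 over control on the y axis; members are red, other tested genes grey, and 144 grey points lie outside the plotted range. Most members lie left of 0 and above 0, from P4ha2 at -2.10 to Cited2 on the right.

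Other genes of the pathway, from lists chosen as HIF machinery and as further HIF targets, were read out from the same fits. Of 15 other machinery genes tested (ligase subunits, coactivators, chaperones and further subunits), 0 passed without the block and 1 rose with it, and their median log2 fold change was -0.02. The 1 was Hif3a, which encodes an alpha subunit with inhibitory isoforms and is itself a HIF target, at 12.2, 19.4 and 7.25 CPM in controls and at 31.4, 43.3 and 16.1 CPM with desIgf1 (blocked log2 1.23 ± 0.12, adjusted p = 0.0332). Of 32 further targets outside glycolysis, 22 were tested, 0 passed without the block and 1 passed with it. Their median log2 fold change was 0.33, and 15 of the 22 were higher and 2 lower in all 3 numbers, beside 20.9% and 17.2% of all genes. For the 15 machinery genes these counts were 2 and 2, and for the 19 glycolytic targets 10 and 0. Of 19 glycolytic targets, 2 rose with the block, Aldoc by 1.76 ± 0.09 and Slc2a3 by 1.38 ± 0.09 on the log2 scale (adjusted p = 0.0103 and 0.0136), and the median was 0.13. The blocked fit called 0 genes of these 3 lists lower, and over all genes it called 0.181% higher and 0.137% lower. With the GC and length correction it called 0 machinery genes, Hif3a included, 0 of the further targets and 2 glycolytic targets. No difference between these lists and the members was tested, and the lists were chosen with earlier results of these data known.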

How the data were processed

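RNA of 6 libraries (3 desIgf1, 3 control, grouped by title) was sequenced after preparation with a stranded mRNA kit, per the labels' protocols. The deposited values are raw counts per gene made by the authors, with no normalization recorded. HTSeq 0.7.2 and STAR 2.5.3 are listed in the submitters' processing notes, beside R 3.4.3, DESeq2 1.18.1, Trim Galore 0.4.5 and SAMtools 0.1.18, with build GRCm38 (mm10) and no roles. Neither annotation release nor strand setting is given in the sources used here. Summary lines that name no gene stayed out of library sizes: 13.5 to 15.7% of uniquely placed reads overlapped no gene, 0.712 to 0.761% were ambiguous, and 46.4 to 48.7% of all entries were alignments that were not unique.

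GENCODE M21 (GRCm38) gave symbols, exon lengths and coordinates for 37693 of 39179 genes. The main test was the robust quasi-likelihood test of edgeR 4.0.16 (R 4.3.3) with TMM factors and no term beside group, on the 13846 genes that filterByExpr kept at a minimum count of 10. p-values were adjusted by Benjamini-Hochberg over all of them, with a threshold of 0.05. CPM use TMM factors, differences within a number are of log2 CPM with a prior count of 2, and a standard error is the log2 fold change divided by the square root of F. The alternatives used DESeq2 1.42.0, limma 3.58.1 (voom), other factors and filters, left-out libraries, and the replicate block, alone or with a GC and length correction. Same-numbered libraries deviated together (r of 0.59, 0.32 and 0.55, against -0.49 to 0.05 for other numbers), so the numbers were treated as pairs, on the evidence of the data alone. Deviations from a group mean cancel out within each gene. The values for other numbers are therefore partly fixed by those for the same number and are not separate evidence. The block leaves 2 residual degrees of freedom, against 4 without it, and fewer where a number is left out. Separate cultures or animals are not stated in the labels; p-values then measure only the spread between these samples. Xist and Y-linked transcripts set the number 1 libraries apart from the others, so at least these are not repeats of the same material. Those transcripts do not separate numbers 2 and 3. No libraries were copies of each other (chi-square per degree of freedom 40.5 to 130). Between numbers 2 and 3 this value was 130 in controls and 95.4 with desIgf1, beside 58.6 and 40.5 between numbers 1 and 2. Whether the spread between numbers 2 and 3 is technical was not tested. The fits were tested on simulated data, where the blocked edgeR fit and DESeq2 with or without the block gave a larger share of false calls than the threshold allows. The edgeR fit without the block was slightly above the threshold there, and limma voom slightly below it.

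Genes named per library were the subunits, hydroxylases and Vhl, members past the threshold in either fit, members whose groups did not overlap, and the 3 others with the largest change at a mean of 1 CPM or more. Values by library of the remaining members were picked with their values in view. The members, the lists and the rule were chosen with earlier results of these data known. The values of 1 gene of the other lists are not reported here.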

Additional observations from a re-analysis of the deposited data

How the results depend on the processing

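Without the block, 0 genes and 0 members were called in each single-library omission and with RLE factors, no factors, a minimum of 1 CPM in 3 libraries or limma voom, and the 3 other lists gave 0 there too. DESeq2 without the block and edgeR with no filter called genes, but 0 members and 0 genes of those lists. Over all genes, the count was 44 with the block, 202 with DESeq2, 606 with DESeq2 and the block, 16 with no filter on counts, 8 with the block and the GC and length correction, and 38 with the block and either RLE factors or no factors (both chosen after seeing the data). With the block and without the libraries of 1 number it was 72 without number 1, 620 without number 2 and 1069 without number 3. Members called were 2 with the block under TMM, RLE or no factors, 11 with DESeq2 and the block, and 2 to 11 without the libraries of 1 number; without number 1 the 2 were Vegfa and Ndrg1. Other machinery genes called were 1 with the block under each of the 3 scalings and with DESeq2 and the block, and 1 to 2 without 1 number. Further targets outside glycolysis called were 1 with the block under each scaling, 7 with DESeq2 and the block, and 0 to 10 without 1 number. Not all of these were increases: 6 of the 7 were higher, 7 of the 8 without number 2, and 9 of the 10 without number 3. Glycolytic targets called were 2 with the block under each scaling or with the GC and length correction, 4 with DESeq2 and the block, and 2 to 7 without 1 number. With the GC and length correction the blocked fit called 0 members, 0 other machinery genes and 0 further targets. The median of the members ran from 0.17 to 0.46 with 1 library left out, and from 0.26 to 0.34 in the blocked edgeR fits. In 20 alternatives 23 of 33 members kept the sign of their log2 fold change, and the other 10 had a size of at most 0.15 in the fit without the block. The cause of these shifts was not tested. Depth limits Epas1 and Adm, which had at most 71 and 33 counts in a library.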
